A study of Drosophila melanogaster with 8 samples.

Results

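Muscle transcripts of fly testis preparations, where the testis sheath is the contractile coat, were followed through 10 sarcomere genes, Mhc, Mlc1, Mlc2, Prm, up, wupA, Mp20, bt, sls and Unc-89, which were taken by symbol from a table of 16018 genes. All 10 were found, all 10 passed the filter on low counts, and none was chosen by its measured values in the rule, although earlier results of these data were known when the list was drawn up. Testes of Drosophila melanogaster were dissociated, and poly(A)+ RNA was sequenced from green fluorescent cells collected by sorting and from the unsorted suspension. In tj-GAL4 sorted and tj-GAL4 unsorted cells, the driver line (Kyoto stock 104055) was crossed to UAS-GFP (Bloomington stock 9431) for early somatic cyst cells, in which tj is known to be active. In eya-GAL4 sorted and eya-GAL4 unsorted cells, the same UAS-GFP was crossed to an eya-GAL4 line credited to Leatherman and Dinardo, for mature cyst cells, in which eya is known to be active. Each of the 4 groups has 2 libraries, described as biological replicates, and all carry GAL4 and UAS-GFP. The labels call the tissue testes and state neither age nor number of flies.

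A sarcomere is the repeating unit of striated muscle, in which myosin thick filaments pull on actin thin filaments under the control of troponin and tropomyosin. Giant proteins anchor the filaments at the Z disc and the M line. The fly testis is wrapped by a sheath with an outer layer of pigment cells and an inner layer of multinucleate muscle that is thin and smooth-like in appearance but uses sarcomeric proteins. Somatic cyst cells lie inside the sheath and enclose the germline. They rely on the non-muscle actin and myosin found in most cells.

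Total gene counts ran from 10771009 to 25344721 a library. The 10 genes made up 0.0444% and 0.0405% of them in tj-GAL4 sorted replicates 1 and 2 (Wilson 95% intervals 0.0433% to 0.0455% and 0.0397% to 0.0412%). The tj-GAL4 unsorted replicates 1 and 2 had 0.171% and 0.0807% (0.169% to 0.173% and 0.0793% to 0.0820%). In eya-GAL4 sorted replicates 1 and 2 it was 0.052% and 0.0357% (0.0507% to 0.0534% and 0.0349% to 0.0365%), against 0.135% (0.133% to 0.137%) in replicate 3 and 0.189% (0.187% to 0.191%) in replicate 4 of the eya-GAL4 unsorted cells. These intervals cover counting error only. Without mitochondrially encoded genes the shares in tj-GAL4 unsorted replicates 1 and 2 were 0.192% and 0.118%. The cyst cell transcripts tj and eya rose in both sorts, by 4.42 ± 0.44 and 2.63 ± 0.46 in log2 for tj-GAL4 (adjusted p = 0.0014 and 0.011) and by 3.06 ± 0.41 and 1.86 ± 0.45 for eya-GAL4 (adjusted p = 0.0016 and 0.013).

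Unless stated otherwise, levels are CPM (reads scaled to a common library size after TMM normalization), differences are log2 fold changes ± SE with n = 2 libraries a group, and adjusted p-values come from edgeR's quasi-likelihood test with Benjamini-Hochberg adjustment over 12570 genes. Calls were made below an adjusted p of 0.05. All positions are in dm6.

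In tj-GAL4 sorted cells 9 of the 10 sarcomere transcripts fell relative to the unsorted suspension, where 2.38% of all genes tested were called lower, and none rose, where 8.98% were called higher. Under the authors' library totals the calls over all genes were 241 lower and 292 higher, against 299 and 1129 with TMM scaling, and 8 of the 10 fell. The median over the 10 was -3.25, against -0.08 over all genes tested. The exception was sls, the gene of the titin-like spring protein, and it was also the only member whose tj-GAL4 sorted and unsorted libraries overlapped. The tj-GAL4 sorted libraries lay wholly below the unsorted ones for 9 members and for 22.9% of all genes. In eya-GAL4 sorted cells 3 of the 10 fell, Mhc, bt and sls, where 20% of all genes were called lower, and none rose, where 28% were called higher. Some or all of these 3 calls were lost without eya-GAL4 sorted replicate 1 or 2 or eya-GAL4 unsorted replicate 4. Those fits leave 1 library in a group, and far fewer of all genes were called lower in them too. Why the calls were lost was not tested. Mhc, bt and sls stood at -1.22, -1.72 and -1.32 without eya-GAL4 sorted replicate 2. They stood at -0.80, -1.53 and -1.52 without eya-GAL4 unsorted replicate 4. Mhc and sls stood at -1.53 and -2.09 without eya-GAL4 sorted replicate 1. With all libraries the median over the 10 was -0.63, against -0.09 over all genes. The eya-GAL4 sorted libraries lay wholly below the unsorted ones for 5 members (Mhc, wupA, bt, sls and Unc-89) and for 44.3% of all genes. There the calls over all genes were 1275 lower and 1037 higher under the authors' totals, against 2512 and 3516 with TMM scaling, and 2 of the 10 fell, bt and sls. In these bulk samples, fewer cells of a type and less RNA per cell cannot be told apart.

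**Figure D1:**
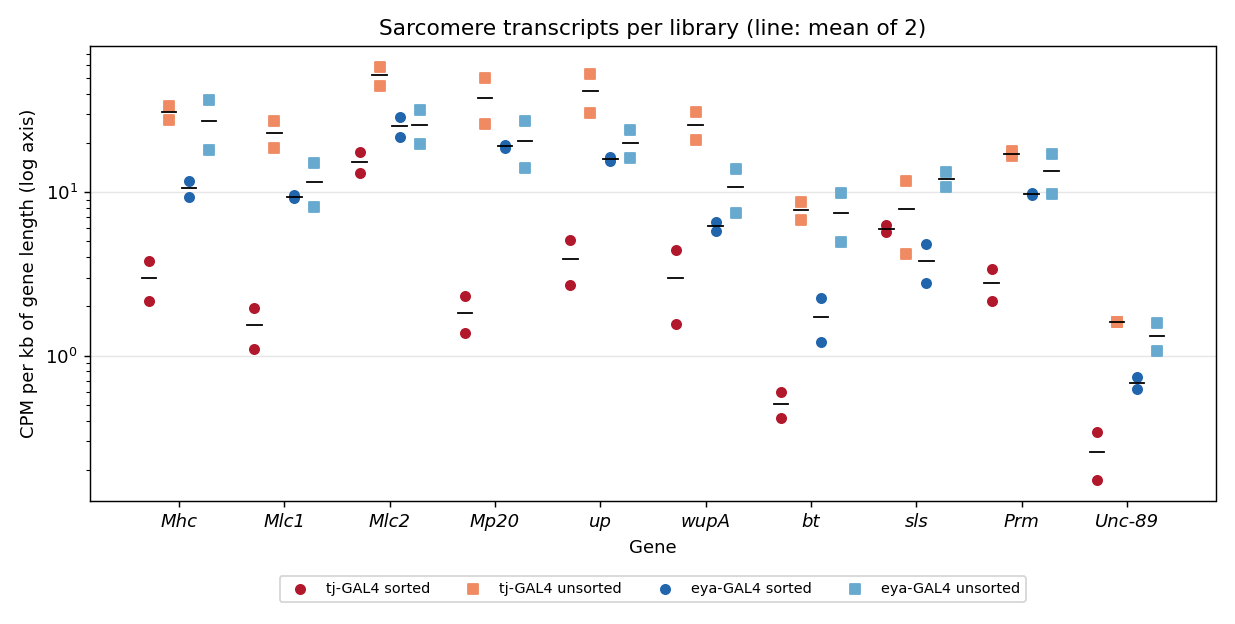
Level of each sarcomere transcript per library, in CPM per kilobase of deposited gene length on a log axis. Points are libraries, circles are sorted and squares unsorted cells, and the line is the mean of 2 libraries; the tj-GAL4 sorted points lie below the tj-GAL4 unsorted points for every gene but sls.

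**Figure D2:**
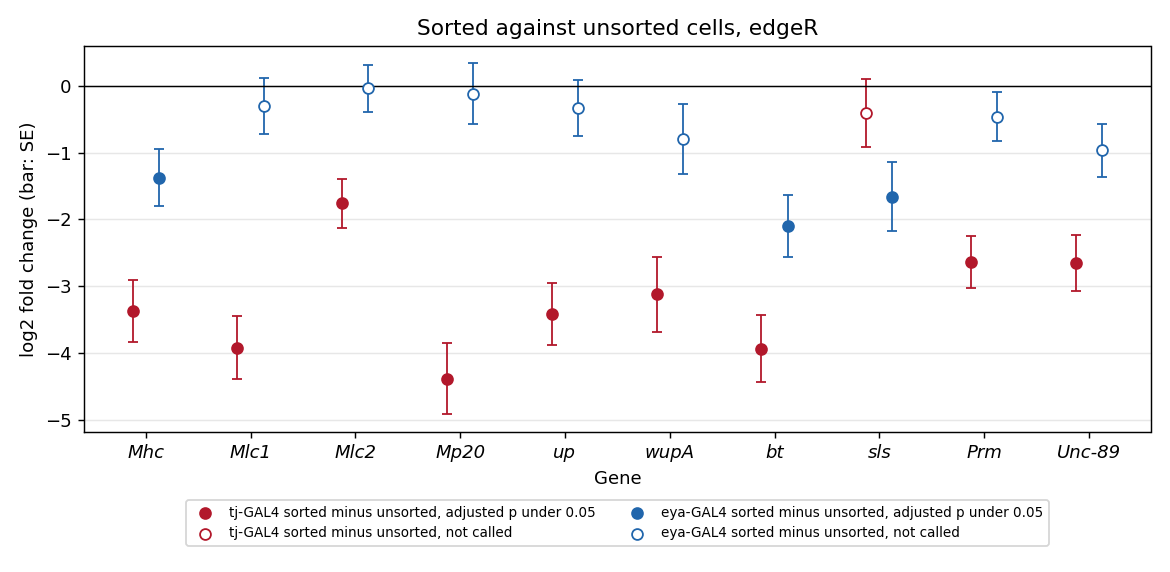
Log2 fold change of sorted against unsorted cells for each driver, with the SE as bars. Filled points have an adjusted p under 0.05: 9 genes for tj-GAL4 and 3 for eya-GAL4.

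Among thick filament genes, Mhc (FBgn0264695, 2L, 16766566 to 16788766, plus strand) encodes the muscle myosin heavy chain, the motor of contraction. Mhc was at 27.9 and 15.9 CPM in tj-GAL4 sorted replicates 1 and 2, against 247.9 and 203.9 CPM in tj-GAL4 unsorted replicates 1 and 2. It was at 85.8 and 68.7 CPM in eya-GAL4 sorted replicates 1 and 2, against 133.2 and 267.7 CPM in eya-GAL4 unsorted replicates 3 and 4. Both sorted groups lay below their unsorted groups without overlap, and the tj-GAL4 sorted cells had the least. Mhc fell by 3.37 ± 0.47 in the tj-GAL4 sort (adjusted p = 0.0041) and by 1.38 ± 0.43 in the eya-GAL4 sort (adjusted p = 0.031). The eya-GAL4 call was lost without eya-GAL4 sorted replicate 1 or 2 (adjusted p = 0.11 and 0.17), with the authors' library totals (-2.12, adjusted p = 0.068) and without eya-GAL4 unsorted replicate 4 (-0.80, adjusted p = 0.24).

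The light chains that sit on the myosin neck both fell in the tj-GAL4 sort, where 2.38% of all genes tested were called lower. Neither was called in the eya-GAL4 sort, where 20% were called lower. By edgeR the difference of the 2 enrichments was not called for Mlc1 or Mlc2 (adjusted p = 0.24 and 0.33). Mlc1 (FBgn0002772, 3R, 27657078 to 27660177, minus strand), the essential or alkali light chain, was at 2.77 and 1.55 CPM in tj-GAL4 sorted cells, against 26.2 and 38.5 CPM in tj-GAL4 unsorted cells. The eya-GAL4 sorted libraries had 13.5 and 12.98 CPM, both between the 11.5 and 21.3 CPM of the eya-GAL4 unsorted replicates. Mlc1 thus fell by 3.92 ± 0.48 in the tj-GAL4 sort (adjusted p = 0.0028), while its eya-GAL4 groups overlapped at -0.31 ± 0.42 (adjusted p = 0.55), or 0.19 without eya-GAL4 unsorted replicate 4. Mlc2 (FBgn0002773, 3R, 30171438 to 30174551, minus strand), the regulatory light chain, was at 40.0 and 29.7 CPM in tj-GAL4 sorted cells, against 102.4 and 133.9 CPM in tj-GAL4 unsorted cells. Its eya-GAL4 sorted libraries had 49.7 and 65.6 CPM, within the 45.2 and 73.0 CPM of the unsorted ones. Mlc2 fell by 1.76 ± 0.36 in the tj-GAL4 sort (adjusted p = 0.020), less than every other called member, and stood at -0.03 ± 0.35 in the eya-GAL4 sort (adjusted p = 0.94). That last value was 0.001 with DESeq2's size factors, 0.16 without eya-GAL4 sorted replicate 1 and 0.34 without eya-GAL4 unsorted replicate 4. The Mlc2 call was lost without each of the sorted libraries, at adjusted p = 0.10 and 0.095 for tj-GAL4 replicates 1 and 2 and 0.052 for either eya-GAL4 replicate. With the authors' library totals it was -1.88 (adjusted p = 0.28), and with the tj-GAL4 groups fitted alone -1.78 (adjusted p = 0.11).

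Prm (FBgn0003149, 3L, 8732858 to 8745310, minus strand) encodes paramyosin, a rod protein in the core of invertebrate thick filaments. Prm was at 12.4 and 7.90 CPM in tj-GAL4 sorted cells, against 65.4 and 60.4 CPM in tj-GAL4 unsorted cells. It was at 36.1 and 35.3 CPM in eya-GAL4 sorted cells, against 35.4 and 62.9 CPM in eya-GAL4 unsorted cells, with overlap at the low end. The tj-GAL4 difference was -2.64 ± 0.39 (adjusted p = 0.0053) and the eya-GAL4 difference -0.46 ± 0.37 (adjusted p = 0.31).

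The 3 members of the thin filament fell in the tj-GAL4 sort, where 2.38% of all genes tested were called lower. They were not called in the eya-GAL4 sort, where 20% were called lower. By edgeR the difference of the 2 enrichments was not called for any of the 3 (adjusted p = 0.33 for up and wupA and 0.19 for Mp20). The X-linked gene up (FBgn0004169, 13593474 to 13602578, minus strand), whose product troponin T ties the troponin complex to tropomyosin, was at 8.68 and 4.61 CPM in tj-GAL4 sorted cells, against 51.6 and 89.6 CPM in tj-GAL4 unsorted cells. The eya-GAL4 sorted libraries had 26.3 and 27.8 CPM of up, against 27.3 and 40.7 CPM in eya-GAL4 unsorted cells. The X-linked gene wupA (FBgn0283471, 18105568 to 18116922, minus strand) encodes troponin I, which holds the actin filament off at rest. It was at 5.99 and 2.09 CPM in tj-GAL4 sorted cells, against 28.1 and 41.4 CPM in tj-GAL4 unsorted cells. In the eya-GAL4 strain wupA had 8.79 and 7.82 CPM in sorted cells, against 10.02 and 18.7 CPM in unsorted cells, without overlap. The tj-GAL4 differences were -3.42 ± 0.46 for up (adjusted p = 0.0036) and -3.12 ± 0.56 for wupA (adjusted p = 0.012). Neither was called in the eya-GAL4 sort, where up stood at -0.33 ± 0.42 (adjusted p = 0.52) and wupA at -0.79 ± 0.52 (adjusted p = 0.23). For wupA the tj-GAL4 call did not hold when replicate 2 of the sorted cells was left out (-2.53, adjusted p = 0.059) or with the tj-GAL4 groups fitted alone (adjusted p = 0.063). With the eya-GAL4 groups fitted alone wupA was called there (adjusted p = 0.029).

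Mp20 (FBgn0002789, 2R, 13246670 to 13248880, plus strand) encodes a calponin-like actin-binding protein of synchronous muscles. Mp20 had only 27 and 31 reads, or 2.02 and 1.2 CPM, in tj-GAL4 sorted cells, against 22.8 and 43.7 CPM in tj-GAL4 unsorted cells. It had 17.2 and 16.3 CPM in eya-GAL4 sorted cells, between the 12.4 and 23.9 CPM of the eya-GAL4 unsorted libraries. This gene had the largest tj-GAL4 difference of the 10, at -4.39 ± 0.53 (adjusted p = 0.0028), and an eya-GAL4 difference of -0.12 ± 0.45 (adjusted p = 0.83), or 0.42 without eya-GAL4 unsorted replicate 4.

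Giant proteins that span filaments are encoded by bt, Unc-89 and sls. The chromosome 4 gene bt (FBgn0005666, 724400 to 776474, plus strand) encodes projectin, a titin-like kinase that lies along the thick filament. It was at 16.6 and 11.4 CPM in tj-GAL4 sorted cells, against 242 and 187.6 CPM in tj-GAL4 unsorted cells. The level of bt in eya-GAL4 sorted cells was 62.1 and 33.6 CPM, against 137.1 and 273.8 CPM in eya-GAL4 unsorted cells. The groups did not overlap in either strain, and bt fell in both sorts, at -3.94 ± 0.50 for tj-GAL4 (adjusted p = 0.0031) and -2.10 ± 0.46 for eya-GAL4 (adjusted p = 0.0093). The eya-GAL4 call of bt was lost without eya-GAL4 sorted replicate 2 or eya-GAL4 unsorted replicate 4 (adjusted p = 0.086 and 0.076).

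Unc-89 (FBgn0053519, 2R, 23995543 to 24014254, minus strand, named Obsc in the reference annotation) encodes obscurin, a kinase-bearing protein of the M line. Unc-89 was at 4.49 and 2.28 CPM in tj-GAL4 sorted cells, against 21.0 and 21.2 CPM in tj-GAL4 unsorted cells. It was at 9.72 and 8.19 CPM in eya-GAL4 sorted cells, against 14 and 20.9 CPM in eya-GAL4 unsorted cells. The groups did not overlap in either strain. The tj-GAL4 difference of Unc-89 was called at -2.65 ± 0.42 (adjusted p = 0.0070, or 0.060 with the tj-GAL4 groups fitted alone), and the eya-GAL4 difference was not, at -0.97 ± 0.40 (adjusted p = 0.072). The eya-GAL4 difference passed with the eya-GAL4 groups fitted alone (adjusted p = 0.0049) and without tj-GAL4 unsorted replicate 1 or 2 (adjusted p = 0.021 and 0.017).

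The exception to the common pattern was sls (FBgn0086906, 3L, 2039681 to 2115611, minus strand), which encodes Sallimus and kettin, titin-like proteins that link the Z disc to the thick filament. It was at 353.8 and 320.2 CPM in tj-GAL4 sorted cells, against 657.6 and 237.0 CPM in tj-GAL4 unsorted cells. In eya-GAL4 sorted cells sls was at 270.0 and 157.8 CPM, against 608.2 and 747.4 CPM in eya-GAL4 unsorted cells. The tj-GAL4 groups overlapped, at -0.41 ± 0.50 (adjusted p = 0.58), and the sign turned to 0.50 (adjusted p = 0.39) without tj-GAL4 unsorted replicate 1. Without tj-GAL4 unsorted replicate 2 the difference was -0.99 (adjusted p = 0.055). The eya-GAL4 groups did not overlap and sls fell there by 1.66 ± 0.52 (adjusted p = 0.030). That call did not hold with any of 5 libraries left out: tj-GAL4 sorted replicate 1 (adjusted p = 0.052), eya-GAL4 sorted replicates 1 or 2 (adjusted p = 0.077 and 0.18) and eya-GAL4 unsorted replicates 3 or 4 (adjusted p = 0.076 and 0.13).

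Within the set, sls varied apart from the other 9 genes. It supplied 74.6% and 80.7% of the summed reads of the 10 genes in tj-GAL4 sorted replicates 1 and 2, against 44.9% and 22.4% in tj-GAL4 unsorted replicates 1 and 2. The share was 46.6% and 36.4% in eya-GAL4 sorted replicates 1 and 2, against 58.8% and 48.2% in eya-GAL4 unsorted replicates 3 and 4. Per length, Mhc stood at 0.607 and 0.382 times sls in tj-GAL4 sorted cells, and at 2.90 and 6.62 times sls in tj-GAL4 unsorted cells. In the eya-GAL4 strain that ratio was 2.45 and 3.35 in sorted cells, against 1.69 and 2.76 in unsorted cells. As a measure of likeness over the 8 libraries, log2 CPM of sls had a Pearson r of 0.265 with the mean of the other 9 genes, while each of those 9 had one of 0.869 (Mlc2) to 0.993 (Unc-89) with the mean of the rest. These libraries share groups and depth, so the values only describe. The exons of sls overlap an antisense RNA gene, asRNA:CR42860, over 1089 of 58996 exonic nt (1.85%). That gene had 3 and 2 reads in the tj-GAL4 sorted libraries, against 18 and 39 in their unsorted ones. It had 0 and 0 reads in the eya-GAL4 sorted libraries, against 3 and 8 in their unsorted ones. The strand setting of the counting is not stated, so reads of the shared bases cannot be assigned. The other 9 genes share no exonic base with another gene in the annotation.

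The unsorted tj-GAL4 libraries differed more in sls than in the sum of the other 9 genes. In tj-GAL4 unsorted replicate 2, against replicate 1, sls was 2.77-fold lower, while the other 9 genes summed to 820.2 and 807.3 CPM in replicates 2 and 1. Of these 9, 5 were higher in replicate 2, 3 were lower and 1 was within 0.1 in log2. The summed CPM of 8 spermatocyte genes (can, mia, sa, nht, aly, comr, topi and tomb) was 141.8 in replicate 2 and 335.8 in replicate 1. The same 8 genes summed to 94.7 and 145.6 CPM in tj-GAL4 sorted cells, to 67.9 and 67.2 CPM in eya-GAL4 sorted cells and to 271.6 and 309.2 CPM in eya-GAL4 unsorted cells. In the tj-GAL4 sort 0 of the 8 were called by edgeR (median -1.01), where 2.38% of all genes tested were called lower. There 4 had an unadjusted p under 0.05. DESeq2 called 3, where it called 1058 of 12570 genes lower, and limma called 0, where it called 216 lower. In the eya-GAL4 sort 8 of 8 fell by edgeR (median -2.21), where 20% of all genes were called lower. Their part in the values of sls was not tested.

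**Figure D3:**
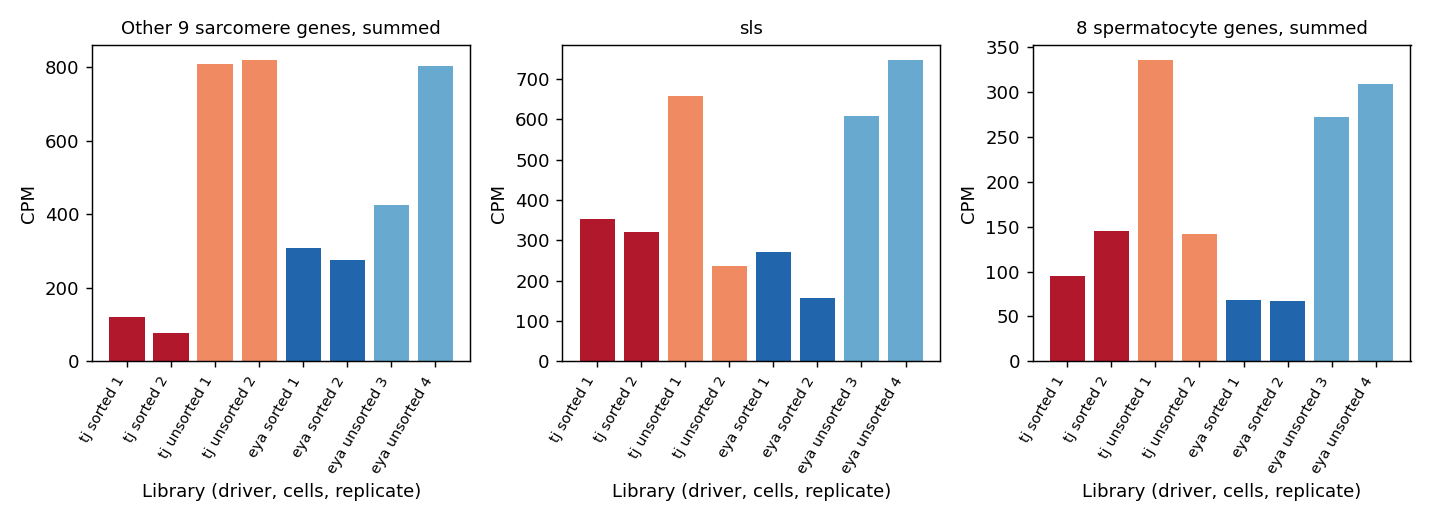
CPM in each library for the other 9 sarcomere genes summed, for sls, and for 8 spermatocyte genes summed. Bars are single libraries; in tj-GAL4 unsorted replicate 2 the 9 genes stand at 820.2 CPM, next to 807.3 CPM in replicate 1, while sls stands at 237.0 CPM next to 657.6 CPM.

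The candidates for likeness to sls were 5156 genes of at least 5 CPM on average, excluding CG and CR numbers. By Pearson r of log2 CPM over the 8 libraries, the 8 genes most like sls were lost, mu2, sba, Daxx, CtIP, Su(var)2-HP2, mus201 and Xpc, with r from 0.988 to 0.993. This list was drawn up after the values of sls were seen. By the same measure, the 8 genes most like the mean of all 10 members were led by Act57B, Tm2, Mf, Mlp84B, Phk-3, Zasp66 and tn, with r from 0.931 to 0.996 for these. The muscle actin gene Act57B came closest, at 23.2 and 14.9 CPM in sorted against 245 and 246 CPM in unsorted tj-GAL4 cells. It stood at 81.7 and 82.5 CPM in sorted against 96.1 and 230 CPM in unsorted eya-GAL4 cells.

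Levels between genes were compared per kilobase of deposited length, which equals the longest annotated transcript. In tj-GAL4 sorted cells Mlc2 led at 15.2 ± 3.16 CPM per kb (SD), followed by sls at 5.97 ± 0.421, neither overlapping its neighbours. Next came up, wupA, Mhc, Prm, Mp20 and Mlc1 at 3.92 to 1.53 CPM per kb, where each gene overlapped the next, and then bt and Unc-89 at 0.507 ± 0.133 and 0.257 ± 0.118. In tj-GAL4 unsorted cells the order was Mlc2, up, Mp20, Mhc, wupA and Mlc1, from 51.7 to 22.9 CPM per kb with each overlapping the next, then Prm at 17.2 ± 0.951. There sls and bt overlapped at 7.92 ± 5.27 and 7.76 ± 1.39, and Unc-89 was lowest at 1.60 ± 0.00999. Mlc2 thus headed both tj-GAL4 groups, and sls moved up past 6 genes in the sorted cells.

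In eya-GAL4 sorted cells Mlc2 was again first at 25.2 ± 4.91 CPM per kb, followed by Mp20 at 19 ± 0.731 and up at 15.9 ± 0.632, which did not overlap each other. Mhc and Prm overlapped at 10.5 ± 1.65 and 9.75 ± 0.151, Mlc1 stood at 9.38 ± 0.282, and wupA, sls, bt and Unc-89 ran from 6.16 to 0.679 without overlap. In eya-GAL4 unsorted cells the first 9 genes, from Mhc at 27.3 ± 13 to bt at 7.43 ± 3.49, each overlapped the next. Only Unc-89 stood apart there, at 1.32 ± 0.372 CPM per kb.

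The 4 longest genes in the eya-GAL4 sort, Mhc (7341 nt), Unc-89 (13189 nt), bt (27666 nt) and sls (56489 nt), were also the 4 lowest, with a median of -1.52, and 3 of them were called. The 6 genes under 4000 nt had a median of -0.32 and none was called by edgeR or had an unadjusted p under 0.05. The bounds were chosen after the values were seen. Over all genes tested, the 497 of at least 7000 nt had a median of -0.10, with 25.4% called lower, and the 10676 under 4000 nt had a median of -0.13, with 19.7% called lower. The tj-GAL4 medians were -3.01 for the 4 long and -3.27 for the 6 short members. There the medians over all genes were 0.39 for the long and -0.17 for the short class.

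**Figure D4:**
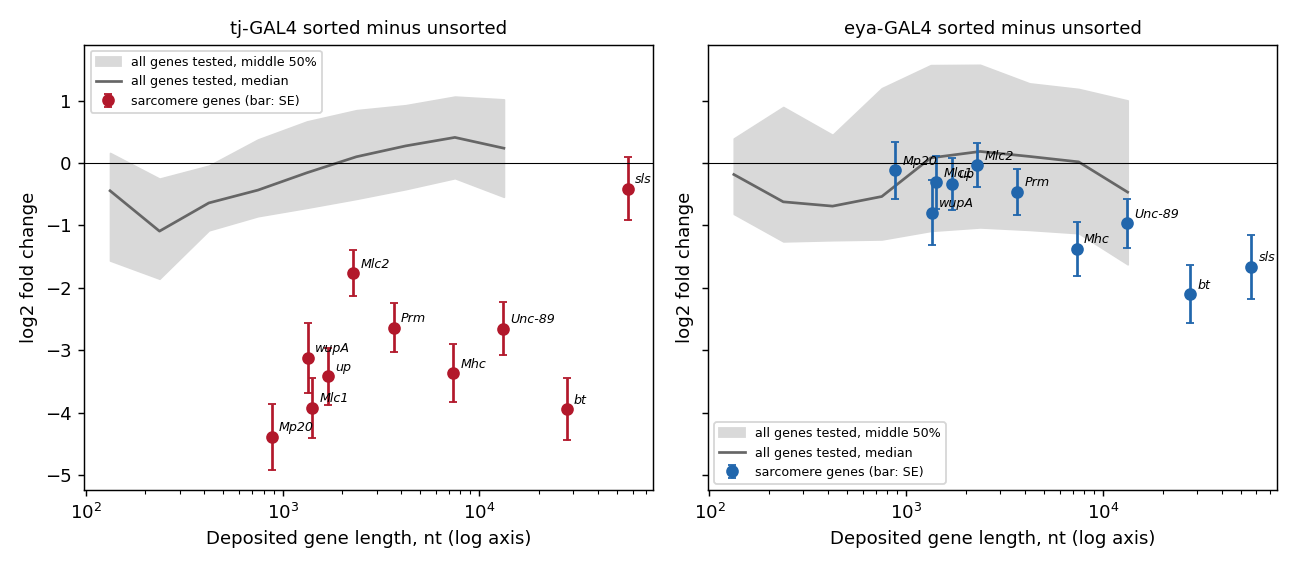
Log2 fold change of sorted against unsorted cells by deposited gene length on a log axis, for tj-GAL4 (left) and eya-GAL4 (right). Points are the 10 sarcomere genes with SE, and the grey line and band are the median and middle 50% of all genes tested; for eya-GAL4 the 4 longest genes lie lowest.

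Between the sorted populations, both tj-GAL4 libraries lay below both eya-GAL4 libraries for 9 of the 10 transcripts, all but sls, where 27.6% of all genes tested had both tj-GAL4 sorted libraries below both eya-GAL4 sorted ones. No member was called by edgeR, where 0.0875% of all genes were called lower and 0.0239% higher. Under the authors' library totals the calls over all genes were 17 lower and 25 higher, against 11 and 3 with TMM scaling. At an unadjusted p under 0.05, 7 of the 10 passed, against 10.8% of all genes. The largest difference was that of Mp20, at -3.40 ± 0.51 (adjusted p = 0.080), followed by Mlc1 at -2.64 ± 0.46 (adjusted p = 0.11). The smallest shortfalls were those of wupA at -1.06 ± 0.54 and Mlc2 at -0.73 ± 0.36 (adjusted p = 0.48 each), and sls was at 0.66 ± 0.51 (adjusted p = 0.58). DESeq2 called 6 members (Mhc, Mlc1, Mp20, up, bt and Prm), where it called 153 genes lower and 58 higher of 12570, and limma called 0 members, with 23 genes lower and 6 higher. Fitted on the sorted libraries alone, edgeR called 8 members, all but Mlc2 and sls, where it called 564 genes lower and 711 higher of 11676. Leaving out tj-GAL4 unsorted replicate 1 or 2, which are not part of this comparison but share its estimate of spread, gave 7 calls each, where 423 genes were called lower and 317 higher without replicate 1, and 441 and 292 without replicate 2.

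The difference of the 2 enrichments put each sort against its own unsorted cells. It was negative for 9 of the 10, from -1.69 ± 0.57 for Unc-89 to -4.27 ± 0.68 for Mp20, and 1.26 ± 0.71 for sls. By edgeR 0 of the 10 were called, where 0% of all genes were called in either direction, with adjusted p from 0.19 for Mp20 to 0.40 for sls. At an unadjusted p under 0.05, 9 of the 10 passed, against 14.6% of all genes. DESeq2 called 4, Mlc1, Mp20, up and Prm, where it called 334 genes lower and 12 higher of 12570, and limma called none of the 10 and 0 of all genes. Under the authors' library totals edgeR called 49 of all genes as lower and 0 as higher. Without tj-GAL4 unsorted replicate 1 edgeR called all 10, where it called 2543 genes lower and 1652 higher of 12460 tested. Without tj-GAL4 unsorted replicate 2 it called 3, Mlc1, Mp20 and up, where it called 51 lower and 13 higher of 12451.

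Between the unsorted suspensions no member passed the test. Differences, tj-GAL4 minus eya-GAL4, ran from -0.60 ± 0.50 for sls to 1.27 ± 0.52 for wupA, and 0 of the 10 were called by edgeR, where 0.0477% of all genes were called lower and 0.0239% higher. The unadjusted p was under 0.05 for 4 (Mlc1, Mlc2, up and wupA), against 11.8% of all genes, and DESeq2 and limma called none. Under the authors' library totals the calls over all genes were 29 lower and 129 higher, against 6 and 3 with TMM scaling. Without tj-GAL4 unsorted replicate 1, 6 were called, Mlc1, Mlc2, Mp20, up and wupA as higher and sls as lower, where 1189 genes were called lower and 2736 higher of 12460 tested. Within the eya-GAL4 unsorted group every member was higher in replicate 4 than in replicate 3, by 1.23-fold for sls to 2.01-fold for Mhc. The eya-GAL4 sorted replicates differed by 1.02-fold to 1.85-fold.

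Taking the mean of both enrichments, all 10 transcripts fell, where 26.3% of all genes were called lower, with differences from -3.02 ± 0.34 for bt to -0.90 ± 0.25 for Mlc2. All 4 sorted libraries lay below all 4 unsorted ones for 4 members, Mhc, wupA, bt and Unc-89, and for 13.5% of all genes. Mlc2 lost its call without 4 of the 8 libraries (tj-GAL4 sorted replicate 2, eya-GAL4 sorted replicates 1 and 2 and eya-GAL4 unsorted replicate 4, adjusted p = 0.050 to 0.087) and with the authors' totals (adjusted p = 0.092). The call of sls held with tj-GAL4 unsorted replicate 2 left out and was lost with each of the other 7 libraries left out (adjusted p = 0.060 to 0.14).

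Index length was 6 bases in both tj-GAL4 libraries numbered 1 and 8 bases in the rest. Within the 6-base pair, sorted minus unsorted log2 CPM ran from -3.86 (bt) to -1.36 (Mlc2) over the 9 members other than sls, and within the 8-base pair from -5.12 (Mp20) to -2.17 (Mlc2). For sls the values were -0.89 and 0.43. Tj-GAL4 unsorted replicate 2 had a summed CPM of 489.5 for 7 fat body genes (such as Lsp1beta, a larval serum protein), against 47.8 to 105.4 in the other unsorted and 19.6 to 33.8 in the sorted libraries, with none of the 7 at 0. Mitochondrially encoded genes took 31.7% of its counts, against 4.68% to 19.8% in the other 7. The 6-base pair, which does not include that library, had all 9 members lower in sorted cells. In the fit without that library the tj-GAL4 difference was -1.58 for Mlc2 and -0.99 for sls.

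Some other sarcomere genes also fell in the tj-GAL4 sort. Over all genes tested, 2.38% were called lower and 8.98% higher in that sort, and 20% and 28% in the eya-GAL4 sort. Of 13 other thin filament genes, 10 were tested, and 4 fell and none rose in tj-GAL4 sorted cells (median -1.44). These were Act57B (-3.69 ± 0.48, adjusted p = 0.0033), the muscle tropomyosin gene Tm2 (-3.37 ± 0.46, adjusted p = 0.0038) and the troponin C genes TpnC47D (-4.07 ± 0.74, adjusted p = 0.012) and TpnC73F (-1.81 ± 0.45, adjusted p = 0.038). In the eya-GAL4 sort 1 of the 10 fell, the actin gene Act87E (-1.09 ± 0.38, adjusted p = 0.045), and 4 rose (median 0.17). With the authors' library totals 0 fell and 1 rose there (median -0.43), where 1275 of 12570 genes were called lower and 1037 higher. With TMM scaling the 4 that rose were TpnC73F at 1.63 ± 0.45 (adjusted p = 0.020), the tropomodulin gene tmod at 1.53 ± 0.39 (adjusted p = 0.016), Tm1 at 1.81 ± 0.53 (adjusted p = 0.025) and the calponin-family gene Chd64 at 3.79 ± 0.72 (adjusted p = 0.0055). Tm1 and tmod also serve non-muscle cells.

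Of 4 other thick filament genes 3 were tested, and the myofilin gene Mf fell in the tj-GAL4 sort (-3.40 ± 0.48, adjusted p = 0.0045) and stood at -0.59 ± 0.44 in the eya-GAL4 sort (adjusted p = 0.27). None of the 3 was called in the eya-GAL4 sort by edgeR, and 0 had an unadjusted p under 0.05 or a call by DESeq2 or limma. Of 8 Z disc genes 4 fell in the tj-GAL4 sort (median -1.81): Zasp66 (-3.35 ± 0.46), the muscle LIM protein genes Mlp60A (-3.94 ± 0.66) and Mlp84B (-3.20 ± 0.48), and tn (-2.98 ± 0.43), with adjusted p of 0.0038 to 0.0085. Actn, the alpha-actinin gene, stood at 0.08 ± 0.44 there (adjusted p = 0.90). In the eya-GAL4 sort 0 of the 8 were called by edgeR (median 0.19, or -0.46 with the authors' totals), against 2 at an unadjusted p under 0.05, 2 by DESeq2 and 0 by limma.

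Non-muscle actin and myosin genes rose where they were called. Of 10 such genes 2 rose in tj-GAL4 sorted cells, Act42A (1.97 ± 0.38, adjusted p = 0.016) and the myosin-activating kinase gene Rok (1.93 ± 0.45, adjusted p = 0.029), and 8 rose in eya-GAL4 sorted cells, with none falling in either (medians 1.29 and 2.62). Over all genes tested, 8.98% were called higher in the tj-GAL4 sort and 28% in the eya-GAL4 sort. With the authors' library totals 0 of the 10 were called in the tj-GAL4 sort and 3 rose in the eya-GAL4 sort (medians 1.40 and 1.98). Under those totals 292 of 12570 genes were called higher in the tj-GAL4 sort and 1037 in the eya-GAL4 sort. The non-muscle regulatory light chain gene sqh was at 215 and 163 CPM in sorted against 38.4 and 122 CPM in unsorted tj-GAL4 cells, and at 429 and 469 CPM in sorted against 52.4 and 42.9 CPM in unsorted eya-GAL4 cells. In the eya-GAL4 sort sqh rose by 3.23 ± 0.54 (adjusted p = 0.0035). Its muscle counterpart Mlc2 was not called there.

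**Figure D5:**
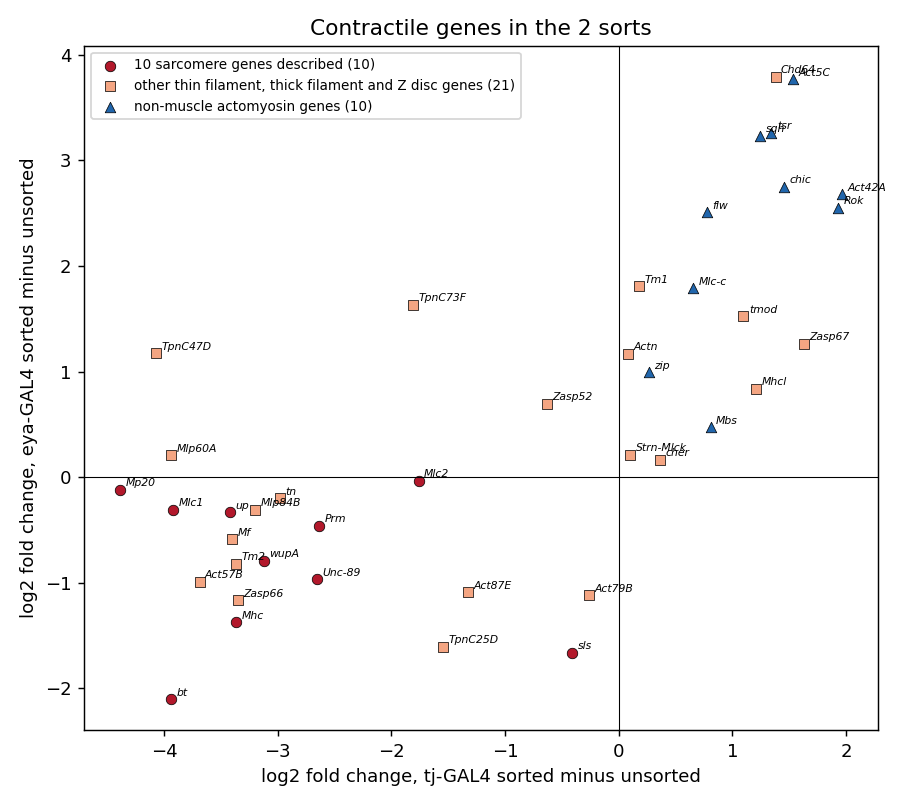
Log2 fold change in the tj-GAL4 sort (horizontal) and the eya-GAL4 sort (vertical) for the 10 sarcomere genes, 21 other thin filament, thick filament and Z disc genes and 10 non-muscle actomyosin genes. With TMM scaling and all 8 libraries, as plotted, the non-muscle genes lie above 0 on both axes and the 10 sarcomere genes below 0 on both; Mbs (authors' totals) and Mlc2 (DESeq2's size factors) change sign for eya-GAL4 with other scalings, and sls for tj-GAL4 and Mlc1, Mlc2 and Mp20 for eya-GAL4 with 1 library left out.

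Of 6 listed calcium and excitation genes 3 were tested. None was called in the tj-GAL4 sort by edgeR, DESeq2 or limma, with 1 at an unadjusted p under 0.05, and the calcium channel gene Ca-alpha1D and the ryanodine receptor gene RyR fell in the eya-GAL4 sort (-2.03 ± 0.41 and -1.69 ± 0.42, adjusted p = 0.0065 and 0.015). The SERCA pump gene stood at -0.21 ± 0.31 and -0.01 ± 0.31 (adjusted p = 0.65 and 0.99). Of 12 muscle regulators 8 were tested, with 1 rise in the tj-GAL4 sort and 2 rises and 1 fall in the eya-GAL4 sort. Over all genes 8.98% were called higher in the tj-GAL4 sort, and 28% higher and 20% lower in the eya-GAL4 sort. The FoxF gene bin, known from visceral muscle, rose in both, by 5.04 ± 0.64 and 4.30 ± 0.61 (adjusted p = 0.0030 and 0.0019). The RNA-binding protein gene how rose (1.90 ± 0.50, adjusted p = 0.018) and the fibrillar muscle selector salm fell (-1.71 ± 0.45, adjusted p = 0.017) in the eya-GAL4 sort. The myogenic factor gene Mef2 was not called in either sort, at 0.27 ± 0.33 and 0.26 ± 0.34 (adjusted p = 0.59 and 0.53).

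The label of a testis sheath was checked against other muscle and cell markers. Of 5 flight muscle genes, Act88F, fln and TpnC4 lay at 0 to 0.711 CPM in every library and were not tested, while Strn-Mlck and salm ranged higher, at 22.6 to 39.7 and 7.40 to 33.4 CPM. Of these, salm fell in the eya-GAL4 sort, and neither had an unadjusted p under 0.05 in the tj-GAL4 sort by edgeR or a call by DESeq2 or limma. Eye pigment genes, used here as markers of pigment cells, summed to 218.1 and 216.9 CPM in sorted against 157.1 and 407.8 CPM in unsorted tj-GAL4 cells, and to 299.4 and 312 CPM in sorted against 33.9 and 37.8 CPM in unsorted eya-GAL4 cells. Of the 8, 6 were tested, with 0 called in the tj-GAL4 sort by edgeR, DESeq2 or limma (1 at an unadjusted p under 0.05). In the eya-GAL4 sort 2 rose, w and st, where 28% of all genes were called higher. Of the pigment sums, w alone made up 197 and 196 CPM in sorted against 136 and 393 CPM in unsorted tj-GAL4 cells. In the eya-GAL4 strain w made up 269 and 285 CPM in sorted against 15.2 and 21.2 CPM in unsorted cells. The gene w also marks many transgenes, and v was at 0 in 5 libraries.

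Male organs next to the testis have muscle of their own, and markers of the accessory gland were counted. Summed over 10 accessory gland genes, the level was 797.9 and 692.8 CPM in sorted against 976 and 2745 CPM in unsorted tj-GAL4 cells, and 781.9 and 627.9 CPM in sorted against 2496 and 3493 CPM in unsorted eya-GAL4 cells. None of the 10 was at 0, and 2 fell in the tj-GAL4 sort and 7 in the eya-GAL4 sort (0 and 6 with the authors' totals). Muscle of the testis sheath and muscle of attached organs cannot be told apart in these counts. Of 7 fat body genes, 7 fell in the tj-GAL4 sort and 1 in the eya-GAL4 sort (6 and 0 with the authors' totals). Among 8 hemocyte genes 7 were tested, with 1 rise and 2 falls in the tj-GAL4 sort and 2 rises in the eya-GAL4 sort. With the authors' totals there were 0 rises and 3 falls in the tj-GAL4 sort, and 1 rise and 1 fall in the eya-GAL4 sort. With TMM scaling 2.38% of all genes were called lower and 8.98% higher in the tj-GAL4 sort, and 20% and 28% in the eya-GAL4 sort. With the authors' totals 241 of 12570 genes were called lower and 292 higher in the tj-GAL4 sort, and 1275 and 1037 in the eya-GAL4 sort. Of 4 neuronal genes 3 were tested, with nSyb rising in both sorts and brp falling in the eya-GAL4 sort. Of 5 cyst cell genes 4 rose in each sort, tj, eya, so and Six4, or 2 in each with the authors' totals. The other, zfh1, was not called, at 0.63 ± 0.41 for tj-GAL4 and -0.86 ± 0.42 for eya-GAL4 (adjusted p = 0.31 and 0.11). The part of these cell types in the sarcomere values was not tested.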

How the data were processed

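Poly(A)+ RNA of 8 libraries was compared. The submitters' processing notes list FastQC, Bowtie 1.2.2, HTSeq, DESeq2 and the build dm6; the annotation release and strand setting are not stated there. The deposited raw counts are, per the file headers, HTSeq reads per gene, with one column per library. The deposited RPM, computed by the authors, gave their library totals (30669063 to 38507084, of which gene counts were 28% to 71.6%). A further 20 columns of values were not used. Replicate numbers 3 and 4 of the eya-GAL4 unsorted libraries follow the column names, which differ from the titles, so no pairing was made for them.

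The counts were tested with edgeR 4.0.16 in R 4.3.3 (TMM, quasi-likelihood; CPM of at least 1 in at least 2 libraries), all 4 groups in one fit with 4 residual degrees of freedom, two-sided. Each SE was derived from the fold change and its F statistic. The test was checked on simulated counts in which equal numbers of genes rose and fell in the tj-GAL4 sorted group. That check does not cover the choice of scaling. Alternatives used DESeq2 1.42.0, limma 3.58.1 on log2(CPM + 1), other scalings and filters, a replicate block and each library left out. Positions come from Ensembl release 115. Members, the 14 gene lists and the rules were chosen with earlier results of these data known. All members were named; from the lists, the 4 genes with the smallest p in the mean of both enrichments were the first candidates to name, and further genes, and the genes most like sls, were named after their values were seen. Stac, SclA and SclB were not matched and are not analysed here.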

Additional observations from a re-analysis of the deposited data

How the results depend on the processing

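Over the alternatives that kept all libraries, 543 of 580 single-gene results kept direction and call, 27 gained a call, 6 lost it and 4 turned sign; the cause was not tested. Those 4 were Mlc2 in the eya-GAL4 sort, at 0.001 with DESeq2's size factors and with its Wald test, and bt between unsorted groups, at -0.0445 without mitochondrial genes and -0.0395 with those groups alone. With the compared groups alone, 6 members were called in the tj-GAL4 sort, against 9, where 30 of 11966 genes fell and 227 rose. In the eya-GAL4 sort 5 were called, against 3, where 4379 of 12058 genes fell and 4554 rose. Between sorted groups 6 were called by DESeq2, 2 with no filter, 8 with those groups alone and 4 with the tj-GAL4 numbers crossed, against 0. Over all genes, 29 were called lower and 17 higher with no filter, and 132 lower and 216 higher with crossed numbers. For the difference of enrichments DESeq2 called 4, against 0. With each library left out, the members called numbered 7 to 9 in the tj-GAL4 sort, 0 to 4 in the eya-GAL4 sort, 8 to 10 over both, 0 to 7 between sorted groups, 0 to 6 between unsorted groups and 0 to 10 for the difference of enrichments. Signs then turned for sls in the tj-GAL4 sort (-0.99 to 0.50), for Mlc1 (-0.70 to 0.19), Mlc2 (-0.35 to 0.34) and Mp20 (-0.53 to 0.42) in the eya-GAL4 sort, and for Mhc (-0.25 to 0.75), bt (-0.35 to 0.64) and Prm (-0.0029 to 0.82) between unsorted groups. Over all alternatives, the genes called lower and higher among all tested ran from 20 to 1670 and 227 to 3112 in the tj-GAL4 sort, 171 to 4379 and 1037 to 4554 in the eya-GAL4 sort, 1034 to 4302 and 1530 to 4469 over both, 0 to 564 and 0 to 711 between sorted groups, 0 to 1189 and 0 to 2736 between unsorted groups, and 0 to 2543 and 0 to 1652 for the difference.

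The authors' totals moved the median of all genes to -0.184 in the tj-GAL4 sort, -0.704 in the eya-GAL4 sort, -0.479 over both, 0.624 between sorted groups and 0.515 for the difference of enrichments, against -0.078, -0.094, -0.111, 0.116 and -0.031. Same-numbered tj-GAL4 libraries deviated at a correlation of -0.338 over genes. A replicate block gave 9, 3, 10, 0, 0 and 0 member calls, as without it, and crossed numbers, an alternative chosen after seeing the data, gave 9, 4, 10, 4, 0 and 0. Over all genes, the block gave 233 lower and 957 higher in the tj-GAL4 sort, 2440 and 3417 in the eya-GAL4 sort and 3069 and 3735 over both. Crossed numbers gave 604 and 2033, 3424 and 4023, and 3986 and 4207 for the same comparisons. Fits on the compared groups alone were not run for the comparisons that use all 4 groups. The lowest depths behind a member were the 27 and 31 reads of Mp20 and the 37 and 40 of Mlc1 in tj-GAL4 sorted cells.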
